A study of Homo sapiens with 6 samples.

Results

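C/D box small nucleolar RNAs (snoRNAs) were examined in 6 subcutaneous tumours in nude mice, grown from the established human liver cancer line Huh7. Members were all probe sets whose gene symbol is SNORD followed by a number, 222 of the 24726 probe sets of the array table. Of these, 84 belong to the imprinted clusters SNORD113 to SNORD116 and are described apart, which leaves 138. In 3 tumours the cells carried the plasmid pRcCMVi.hIR-A(GFP), named for human IR-A, the A isoform of the insulin receptor, and in the other 3 they carried an empty vector (control). Cells of both groups had been selected for G418 resistance and, by cytometry, for GFP expression, so each group is a selected pool under a plasmid named for the CMV promoter. Nude mice lack a thymus but keep other immune and stromal cells. The comparison asks which transcripts differ in tumours that carry the extra receptor. The members were taken by name, but the family was chosen by its lower signal in IR-A than in control tumours, so that its differences are a description without a test.

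C/D box snoRNAs are short nuclear RNAs that carry the C and D sequence boxes and are bound by the methyltransferase fibrillarin with NOP56, NOP58 and SNU13. Most of them base-pair with ribosomal RNA and direct methylation of a single ribose there, and a few take part in cutting the ribosomal RNA precursor. In human cells nearly all are cut out of introns of host genes, many of which encode ribosomal proteins or are noncoding genes whose introns carry the snoRNAs. A probe set for such an RNA reads the mature snoRNA and any unspliced host RNA together, and these cannot be told apart.

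Outside the imprinted clusters, C/D box snoRNAs had lower signal in IR-A tumours across nearly the whole family. The difference (IR-A mean minus control mean of log2 signals) was below 0 for 133 of 138 members, or 96.4%, against 56% of all probe sets. Its median was -0.87, which is 1.83-fold lower, against -0.03 over all probe sets. It was under -1 for 55 members, or 39.9%, against 0.712% of all probe sets, so that the members made up 31.25% of the 176 probe sets past that bound. SNORD14C had the lowest difference of all 24726 probe sets, and 11 of the 20 lowest were members. The level and difference of every probe set are plotted together to show where the family lies.

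**Figure D1:**
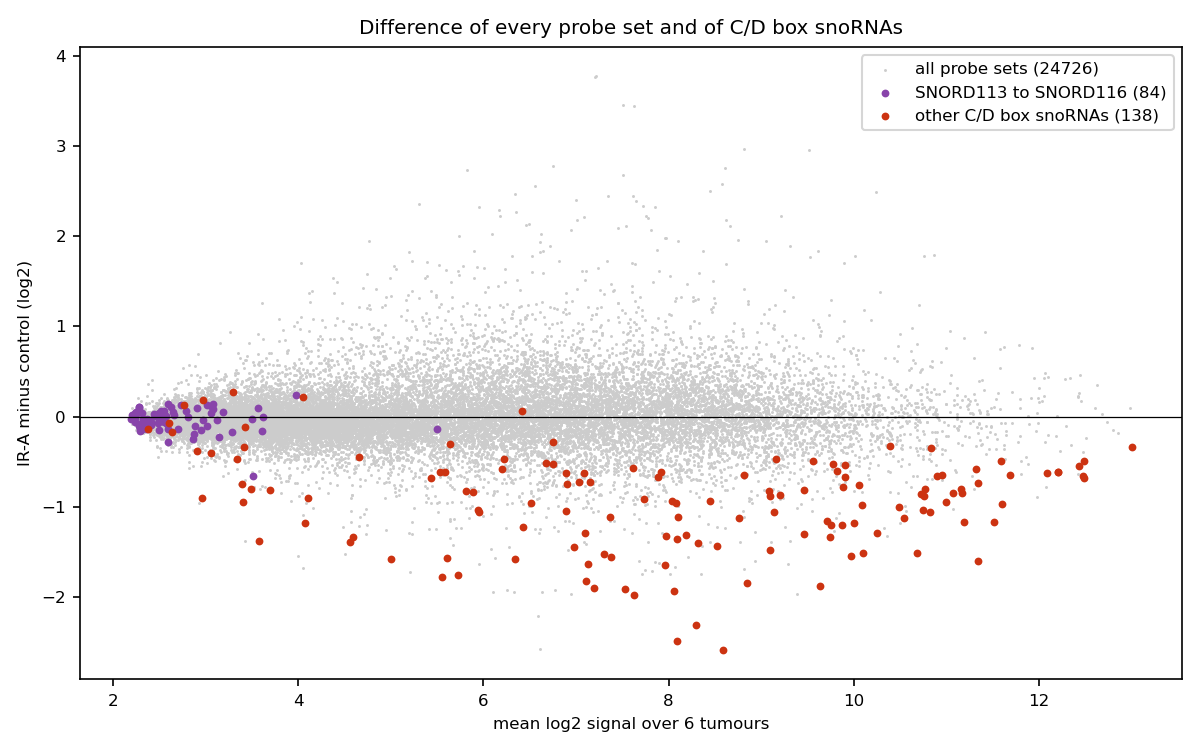
Each point is a probe set, with its mean log2 signal over 6 tumours on the x axis and its log2 difference, IR-A minus control, on the y axis. The 138 members outside the imprinted clusters (red) lie below 0 except for 5, with a median of -0.87, while the 84 members of SNORD113 to SNORD116 (purple) sit around 0 at the dim end.

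No probe set passed limma's test at a Benjamini-Hochberg adjusted p under 0.05 (0% of all, with 1738 lower and 1755 higher at an unadjusted p under 0.05), and no member did. Without control tumour 2, 308 probe sets passed. At an unadjusted p under 0.05, limma gave 104 members lower, 75.4%, against 7.03% of all probe sets. It gave 1 member higher, against 7.1%. The 3 IR-A tumours all lay below the 3 control tumours for 78 members, 56.5%, against 9.45% of all probe sets. For 1 member they all lay above, against 7.73%. The family was chosen on this contrast, and nothing is read from these shares. The 104 became 60 without control tumour 1, 68 without control tumour 3, 69 without IR-A tumour 1 and 65 without IR-A tumour 3. The 78 became 121 without control tumour 2 and 116 without IR-A tumour 2. Leaving out a tumour can only keep or raise this count, so nothing is read from the rise.

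The mean over the 138 members was 8.61, 8.09 and 8.60 in control tumours 1, 2 and 3 and 7.25, 7.82 and 7.39 in IR-A tumours 1, 2 and 3, so the groups did not overlap. Control tumour 2 and IR-A tumour 2 were the nearest to each other. Control tumour 2 was the lowest control for 107 members and IR-A tumour 2 the highest IR-A tumour for 96. Of the 59 members whose groups overlapped, 48 did not overlap when both of these tumours were set aside. These tumours were picked for being nearest, so their removal parts the groups partly by construction. The share over all probe sets was not counted, and nothing is read from the 48. The median difference was -1.06 without control tumour 2 and -0.73 without IR-A tumour 1, and the other left-out tumours gave values between these.

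The signals of other short RNAs are given beside these. H/ACA box snoRNAs, which guide pseudouridylation, had a mean over 89 members of 7.41, 7.00 and 7.46 in control and 6.39, 7.16 and 6.67 in IR-A tumours. Their median difference was -0.47, with 76 of 89 below 0. The 23 Cajal body RNAs, which guide modification of spliceosomal RNAs, had a median of -0.35 with 19 below 0. RPPH1, the RNA of ribonuclease P, read 12.64, 12.01 and 12.64 in control and 10.78, 12.20 and 11.63 in IR-A tumours. RMRP, the RNA of the related ribonuclease MRP, read 12.54, 12.42 and 12.55 against 12.07, 12.39 and 12.10, with no overlap. The 29 probe sets of spliceosomal and related RNU genes had a median of -0.09 with 20 below 0. Control tumour 2 lay below IR-A tumour 2 for RPPH1 and for the H/ACA, Cajal body and RNU means, and above it for RMRP and for the mean of the C/D box members. Among 1132 probe sets of miRNA genes the median difference was -0.04, with 742 below 0. Whether the C/D box differences hold apart from these levels of other short RNAs was not tested.

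**Figure D2:**
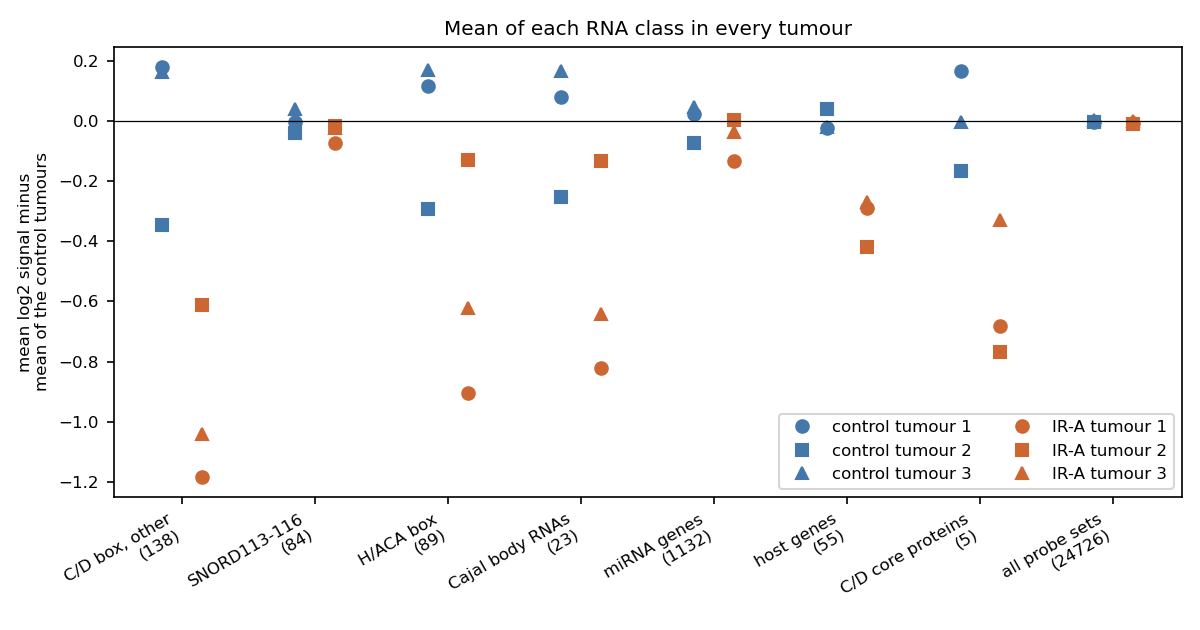
Mean log2 signal of each RNA class in each tumour, after subtraction of the mean of the 3 control tumours. Colours mark the group, symbols the tumour number, and brackets give the number of probe sets. The class of C/D core proteins also holds the U3-specific RRP9. C/D box members outside the imprinted clusters spread from 7.25 to 7.82 in IR-A and from 8.09 to 8.61 in control tumours before subtraction, and all probe sets together stay near 0 in every tumour.

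Of the snoRNAs grouped by rule as processing snoRNAs, for a part in ribosomal RNA maturation, U3, U13, U14 and U22 were measured. U3 is needed for the cuts that free 18S rRNA, and 2 of its gene copies had probe sets. SNORD3C read 9.46, 8.33 and 9.30 in control and 6.23, 7.79 and 7.26 in IR-A tumours, a difference of -1.93 (SE 0.46). The lowest control lay above the highest IR-A tumour. SNORD3D read 8.24, 7.74 and 8.62 in control and 6.69, 8.13 and 7.03 in IR-A tumours (-0.92, SE 0.40), and IR-A tumour 2 lay above control tumour 2. The U3 copies are near-identical, so the source of either signal is uncertain. SNORD13 (U13), which pairs with 18S rRNA and is transcribed from its own gene, was near the top of the scale, at 13.20, 13.10 and 13.22 in control and 12.63, 13.09 and 12.80 in IR-A tumours. Its difference was -0.34 (SE 0.13) and the groups nearly touched.

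U14 both guides a methylation of 18S rRNA and takes part in its maturation, and its copies lie in introns of HSPA8, a constitutive chaperone, and of RPS13, a ribosomal protein gene. SNORD14C of HSPA8 read 10.13, 9.42 and 10.10 in control and 7.00, 8.54 and 6.33 in IR-A tumours. The difference of -2.59 (SE 0.55, 6.03-fold lower) came with a spread of 1.13 (SD, n = 3) among IR-A tumours and 0.40 (SD, n = 3) among controls. SNORD14E, of the same host, differed by -1.58 (SE 0.49), and its groups overlapped. SNORD14A and SNORD14B of RPS13 differed by -1.12 (SE 0.28) and -1.29 (SE 0.29) without overlap. The U14 copies are alike in sequence and may share signal. SNORD22 (U22), needed for 18S rRNA maturation, read 7.32, 7.44 and 7.42 in control and 6.66, 6.44 and 6.89 in IR-A tumours, a difference of -0.73 (SE 0.13). Here control tumour 2 was the highest control and IR-A tumour 2 the lowest tumour, unlike in U3 and U14.

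By the rRNA target listed for them, 59 members guide 28S and 36 guide 18S. Guides of 28S rRNA were below 0 in 58 of 59, with a median of -1.06, and guides of 18S rRNA in 34 of 36, with a median of -0.93, or -0.83 over 32 guides without U14. A single guide of 28S, SNORD102, and 2 guides of 18S, SNORD98 and SNORD103C, were above 0. Of the members listed as guides of U6, a spliceosomal RNA, SNORD94 differed by -0.72 (SE 0.39) and SNORD67 by -0.30 (SE 0.18), with overlapping groups. Of the members listed as guides of 5.8S rRNA, SNORD96A differed by -1.58 (SE 0.20) without overlap and SNORD71 by -0.50 (SE 0.30) with overlap. The 33 members for which no target was listed had a median of -0.65, with 31 below 0. The targets are textbook assignments from a written list that is not complete. Members without a listed target may guide these RNAs too, so the counts and medians are those of the list. The targets were not measured here.

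The 10 members of lowest difference came from 8 hosts and, for SNORD3C, from no host. SNORD91B, a 28S guide in an intron of the small-subunit assembly factor TSR1, read 9.64, 8.44 and 9.92 in control and 5.53, 8.19 and 6.82 in IR-A tumours (-2.49, SE 0.70, 5.60-fold lower). SNORD80, a 28S guide of the noncoding host GAS5, read 10.03, 8.89 and 9.44 in control and 6.48, 8.30 and 6.63 in IR-A tumours (-2.32, SE 0.53). In both, IR-A tumour 2 was the highest of its group and the groups did not overlap.

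NOP58 and NOP56 encode core proteins of the C/D box particle and carry C/D box snoRNAs in their own introns. SNORD70 of NOP58, an 18S guide, read 9.21, 7.38 and 9.26 in control and 5.92, 7.77 and 6.22 in IR-A tumours (-1.98, SE 0.66), so that control tumour 2 lay below IR-A tumour 2. SNORD11, of the same host and also an 18S guide, read 8.71, 7.16 and 8.58 against 5.59, 7.13 and 6.02 (-1.91, SE 0.53). SNORD57 of NOP56, again an 18S guide, read 10.58, 10.35 and 10.80 against 7.87, 9.69 and 8.52 (-1.88, SE 0.43). The groups were apart for SNORD57, and for SNORD11 they nearly touched.

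SNORD4B, an 18S guide of RPL23A, read 8.87, 8.09 and 8.49 in control and 6.28, 6.87 and 6.56 in IR-A tumours, a difference of -1.91 with the smallest SE of these 10, 0.23. SNORD50A of the noncoding host SNHG5, a 28S guide, read 9.97, 9.53 and 9.82 against 7.13, 8.55 and 8.10 (-1.85, SE 0.35). Its neighbour SNORD50B read 7.66, 7.91 and 7.53 against 6.42, 6.31 and 6.03 (-1.44, SE 0.15). For both the groups were apart, and for SNORD50B control tumour 2 was the highest control. SNORD31 of the noncoding host SNHG1, a 28S guide, read 8.37, 7.24 and 8.45 against 5.04, 7.14 and 6.40 (-1.83, SE 0.57).

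**Figure D3:**
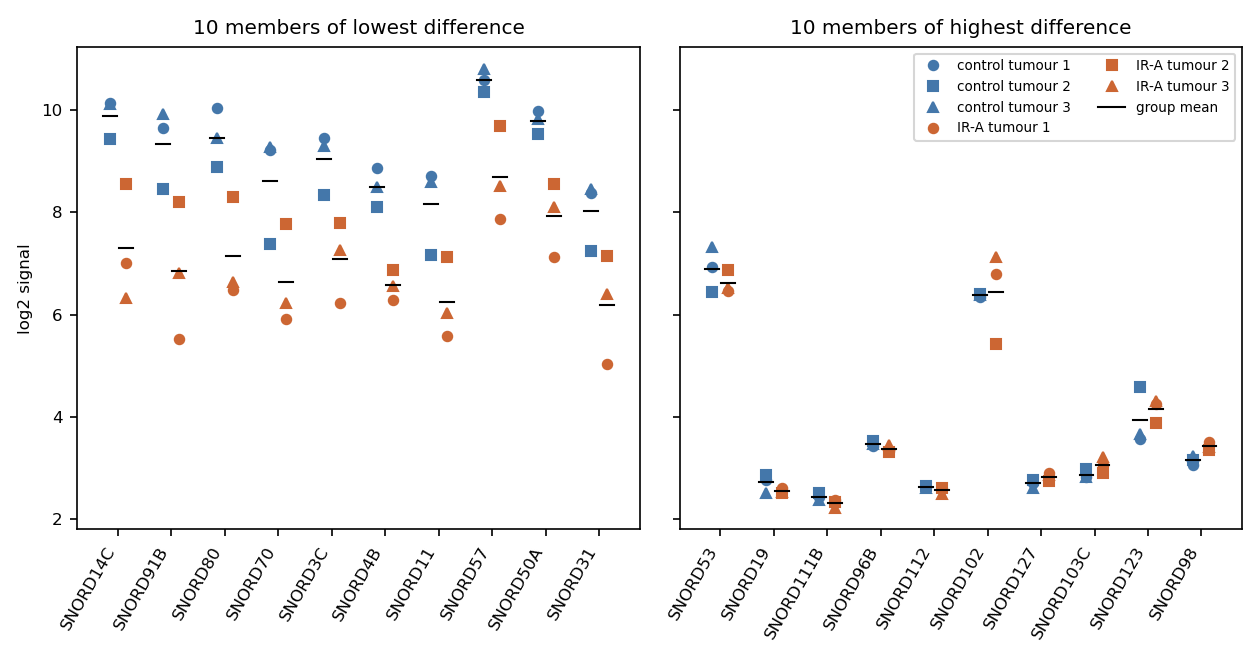
Log2 signal in each tumour for the 10 members of lowest (left) and the 10 of highest difference (right) outside the imprinted clusters. Colours mark the group, symbols the tumour number and black bars the group mean. In the left panel the IR-A means lie 1.83 to 2.59 below the control means, and in the right panel most members are dim.

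At the other end, 5 members had a difference above 0, and 4 of them were dim, below the median probe set of the arrays (4.71). SNORD98, an 18S guide in CCAR1, read 3.07, 3.15 and 3.24 in control and 3.51, 3.35 and 3.42 in IR-A tumours (0.27, SE 0.10). It was the member whose IR-A tumours all lay above the controls. SNORD123 (0.21, SE 0.29), SNORD103C (0.19, SE 0.11) and SNORD127 (0.13, SE 0.10) had overlapping groups. SNORD102, a 28S guide in RPL21, read 6.35, 6.41 and 6.38 in control and 6.78, 5.43 and 7.13 in IR-A tumours. Its difference of 0.07 (SE 0.41) was -0.10 without IR-A tumour 1 and -0.28 without IR-A tumour 3. The remaining members among the 10 highest lay below 0. They were SNORD112 (-0.07), SNORD96B (-0.11), SNORD111B (-0.13), SNORD19 (-0.17) and SNORD53 (-0.28), of which SNORD53 was not dim. SNORD112 lies beside SNORD113 in the imprinted region of chromosome 14, though its number places it outside the 84.

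By level, the differences were nearest to 0 among the dimmest members. The 17 members with a mean signal under 4 had a median difference of -0.38, with 14 below 0. The medians were -0.96 for 49 members from 4 to 8, -1.14 for 36 members from 8 to 10, and -0.80 for 36 members at 10 or more. Differences between dim probe sets are understated by RMA, and those between very bright ones can be limited by the scanner. By RefSeq gene length, the 21 members of 100 nucleotides or more had a median of -0.72 and the 117 shorter ones -0.94. Spearman's rho across the 138 members was 0.15 between length and difference and -0.10 between level and difference. Members share hosts and arrays, so these are descriptions.

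A single host gene was found for 133 members, and there were 69 hosts. In all 33 hosts with at least 2 measured members, every member was below 0. Of all 138 members 96.4% were below 0, so nothing is read from this about hosts. GAS5 carries 9 members, all 28S guides except SNORD44. They ran from -2.32 (SNORD80) to -0.63 (SNORD76), with a median of -0.98, and in all 9 the IR-A tumours lay below the controls. SNORD76 read 12.52, 12.23 and 12.46 in control and 11.59, 12.06 and 11.68 in IR-A tumours. SNHG1 carries 7, from -1.83 (SNORD31) to -0.58 (SNORD28), with a median of -0.74 and 5 without overlap. Beside these counts, 56.5% of the 138 members and 9.45% of all probe sets were lower without overlap, and nothing is read from them about either host.

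Among ribosomal protein hosts with 4 members each, the medians were -1.10 for RPL23A, -1.04 for RPL13A, -0.88 for RPL4 and -0.82 for RPL7A. Within RPL13A the members ran from SNORD34 (-1.54, SE 0.42) to SNORD33 (-0.49, SE 0.19), and in RPL7A from SNORD24 (-1.51, SE 0.57) to SNORD36C (-0.53, SE 0.18). In RPL4 the ends were SNORD18A (-1.32, SE 0.37) and SNORD16 (-0.81, SE 0.24), and in RPL23A SNORD4B and SNORD42B (-0.85, SE 0.26). Over the 7 hosts with at least 4 members, the SD of members around their host's mean was 0.45 and the SD between the host means 0.14. Each host mean is over 4 to 9 members, so the SDs are not of like quantities.

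By kind of host, the median difference was -0.96 for 37 members in ribosomal protein genes, -0.94 for 39 in noncoding hosts and -0.76 for 57 in other protein-coding genes.

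The host genes' own probe sets, which read mostly exons, were lower as well but by less. Of 55 hosts with a probe set, 44 were below 0, with a median of -0.30. Mean host signal was 8.70, 8.76 and 8.70 in control and 8.43, 8.31 and 8.45 in IR-A tumours, so control tumour 2, low for the snoRNAs, was the highest control for the hosts. Of 102 members with a measured host, 92 (90.2%) had a lower difference than their host, and the median of member minus host was -0.51. The snoRNAs were chosen for lower signal in this contrast and the hosts were not, so this order is partly set by the choice. A host with several members enters once for each. The medians of snoRNAs per host and the host differences had a Spearman's rho of 0.59 over 55 hosts, which share the same 6 arrays.

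HSPA8 itself read with a difference of -0.20 (SE 0.14) beside -2.59 for SNORD14C. NOP58 differed by -0.65 (SE 0.20) beside -1.98 for SNORD70 and -1.91 for SNORD11. GAS5 differed by -0.73 (SE 0.24), within the span of its snoRNAs. RPL23A, unlike most hosts, lay below 3 of its 4 snoRNAs, with a difference of -1.56 (SE 0.18). SNHG19 differed by -1.27 (SE 0.10), beside -1.29 (SE 0.51) for SNORD60, a 28S guide. ATP5F1B, a subunit of ATP synthase, differed by 0.01 (SE 0.12) while SNORD59A (-0.65) and SNORD59B (-1.05) were lower. RC3H2 differed by 0.53 (SE 0.21) beside -0.52 for SNORD90. The probe sets of RPL13A, RPL3, DDX39B and SNHG18 were dim on these arrays (3.22, 3.54, 3.74 and 3.99 in control tumours). They say little about those hosts, but they remain in the host counts, medians and rho given above.

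**Figure D4:**
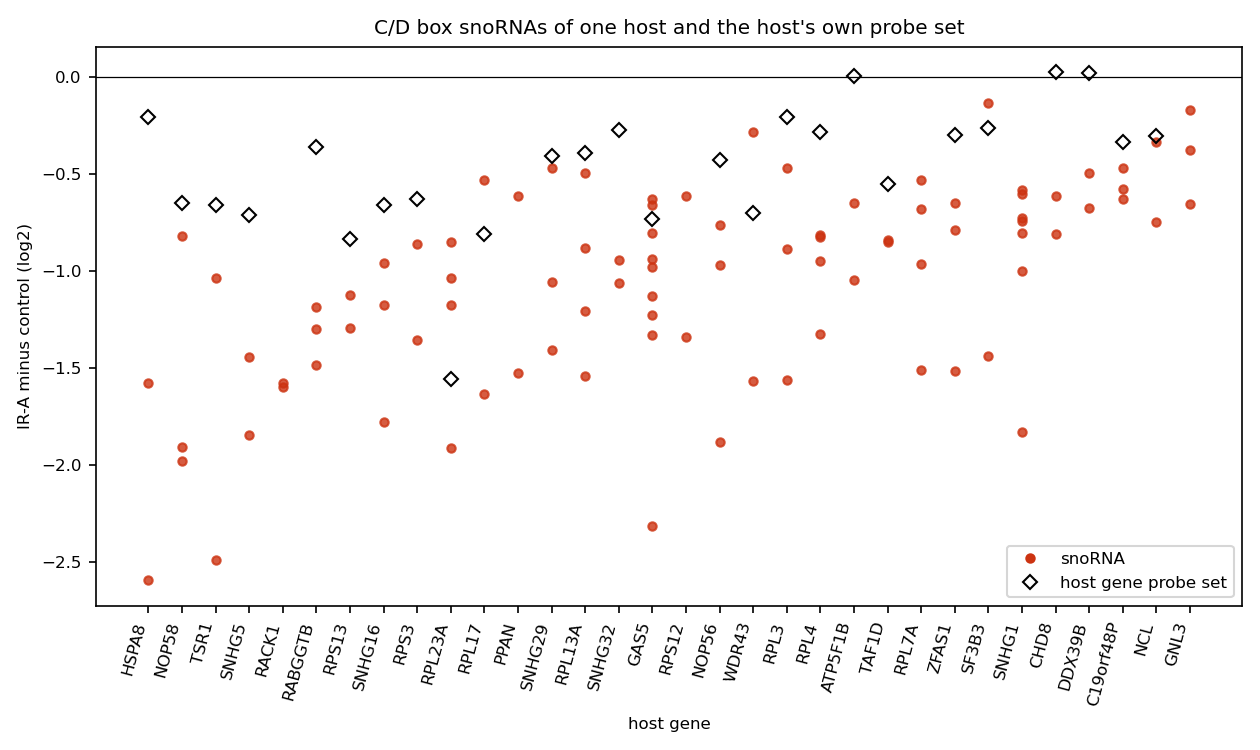
Log2 difference, IR-A minus control, of each C/D box snoRNA (red points) by host gene, for 32 hosts with at least 2 measured members, ordered by the members' median. Open diamonds are the host's own probe set where it was measured, and those of RPL13A, RPL3 and DDX39B are of dim probe sets. All red points lie below 0, from -2.59 in HSPA8 to -0.13 in SF3B3, and most diamonds lie above the median of their host's points.

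Many snoRNA hosts begin their transcripts with a pyrimidine run, the 5′ terminal oligopyrimidine tract known from ribosomal protein genes, which ties translation to growth signalling. The start regions of some hosts are shown because hosts and snoRNAs were both lower. Each runs 5′ to 3′ from 20 bases before to 20 bases after the RefSeq start (assembly GRCh38.p14), with the pyrimidine run that holds CTTT in capitals. The first 7 hold such a run, which in SNHG16 begins at base 4 after the start. HSPA8, TSR1, GAS5 and SNHG1, each the host of 1 of the 10 lowest members, do not hold CTTT here. Neither does NOP56, the host of SNORD57, which is not shown. The hosts shown are a selection, and counts over all host starts follow. GAS5 and SNHG1 are known members of this class, with other starts than these.
SNHG5 (chr6:85678714-85678753, minus strand): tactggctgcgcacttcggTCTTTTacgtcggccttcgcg
SNHG16 (chr17:76557744-76557783, plus strand): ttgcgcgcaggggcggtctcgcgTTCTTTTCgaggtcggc
SNHG19 (chr16:2155339-2155378, minus strand): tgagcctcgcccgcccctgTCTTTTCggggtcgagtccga
SNHG32 (chr6:31834896-31834935, plus strand): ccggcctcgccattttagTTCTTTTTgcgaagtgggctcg
ZFAS1 (chr20:49278622-49278661, plus strand): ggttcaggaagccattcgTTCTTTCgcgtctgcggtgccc
RPS13 (chr11:17077648-17077687, minus strand): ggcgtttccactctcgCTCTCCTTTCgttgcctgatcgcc
RPL13A (chr19:49487588-49487627, plus strand): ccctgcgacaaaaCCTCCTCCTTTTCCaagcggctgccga
HSPA8 (chr11:123062117-123062156, minus strand): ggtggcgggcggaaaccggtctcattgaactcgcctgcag
TSR1 (chr17:2336438-2336477, minus strand): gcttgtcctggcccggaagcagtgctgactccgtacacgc
GAS5 (chr1:173869026-173869065, minus strand): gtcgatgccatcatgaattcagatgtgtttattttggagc
SNHG1 (chr11:62855866-62855905, minus strand): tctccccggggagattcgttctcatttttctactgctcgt

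The letters CTTT on the transcribed strand, searched from 5 bases before to 15 bases after the start, were in 20 of 55 host starts (36.4%; 55 of the 69 hosts had a start in the table, 45 of them also with a probe set), against 8.28% of all 27305 starts in the RefSeq table. The reverse complement AAAG was in 1 host start (1.82%), against 6.26% of all. Among these 55 hosts, 7 of 10 ribosomal protein genes and 13 of 45 others (28.9%) held CTTT. The median of the hosts' snoRNA medians was -0.99 for the 20 hosts with CTTT and -0.72 for the 35 without. The 35 include GAS5 and SNHG1, so this split does not part hosts with such a tract from the rest. Whether the letters bear on the snoRNA differences was not tested. A match describes the letters, and a RefSeq start need not be the start used in these tumours.

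The imprinted clusters gave another picture. All of SNORD113, SNORD114, SNORD115 and SNORD116 are orphans, for which no rRNA target is known. The first pair lies in the host MEG8 on chromosome 14 and is expressed from the maternal copy, and the second pair lies in SNHG14 on chromosome 15, which is paternally expressed and whose loss is linked to Prader-Willi syndrome. Of the 84 members, 83 had a mean signal under 4 and single values ran from 2.10 to 5.995. The median difference was -0.03, the same as over all probe sets, with 53 below 0 (63.1%, against 56% of all probe sets). At an unadjusted limma p under 0.05 there was 1 lower (1.19%, against 7.03%) and 0 higher. Signals this dim may not show a difference in the RNA, and copies within a cluster are so alike that they may share signal.

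SNORD113 had a median of -0.02 over 9 members, SNORD114 of -0.03 over 31, SNORD115 of -0.08 over 25 and SNORD116 of 0.01 over 19. SNORD114-27 was the 1 member above the median probe set, at 5.50, 5.21 and 5.995 in control and 5.31, 5.56 and 5.43 in IR-A tumours (-0.14, SE 0.20), and the groups overlapped. SNORD114-14 read 3.58, 3.73 and 4.25 against 3.74, 4.16 and 4.38 (0.23, SE 0.23). SNORD114-1, named after its values were seen, had the lowest difference of the clusters, at 3.93, 3.46 and 4.14 against 2.94, 3.55 and 3.05 (-0.66). The brightest of the other clusters overlapped too, with differences of -0.01 for SNORD113-3, 0.10 for SNORD113-9, -0.17 for SNORD115-24, -0.15 for SNORD115-45, -0.16 for SNORD116-15 and 0.14 for SNORD116-30.

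The proteins of the C/D box particle were measured on the same arrays. The 4 core proteins and the U3-specific RRP9 were all below 0 (56% of all probe sets were), with a median of -0.53 over these 5. At an unadjusted limma p under 0.05, 4 of the 5 were lower, RRP9 among them and NOP56 not, against 7.03% of all probe sets. In 3 the IR-A tumours all lay below the controls, against 9.45%. FBL, the methyltransferase, read 10.23, 9.72 and 10.11 in control and 8.99, 9.22 and 9.37 in IR-A tumours (-0.83, SE 0.17). SNU13, which binds the kink of the C and D boxes, read 7.97, 7.65 and 7.86 against 7.17, 7.25 and 7.46 (-0.53, SE 0.13). RRP9, the U3-specific protein, differed by -0.53 (SE 0.22), NOP58 by -0.65 (SE 0.20) and NOP56 by -0.43 (SE 0.19). IR-A tumour 3 had the highest value of its group in these 5 genes, not IR-A tumour 2.

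Of 9 assembly factors, 8 were below 0, against 56% of all probe sets, with a median of -0.16. At an unadjusted limma p under 0.05, 3 were lower, against 7.03% of all probe sets. NOLC1, a nucleolar chaperone of snoRNA particles, read 9.04, 8.70 and 8.80 against 8.06, 7.94 and 8.32 (-0.74, SE 0.14). RUVBL1, an ATPase of the assembly complex, differed by -0.71 (SE 0.16) and TGS1, which modifies the cap of U3 and U13, by -0.31 (SE 0.11). ZNHIT3 was the 1 factor above 0 (0.19, SE 0.14). None of the 14 genes passed limma's test over all probe sets.

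INSR, the targeted gene, differed by 2.95 (SE 0.26), with all IR-A tumours above the controls. Across all probe sets, control tumour 2 correlated with the other controls at 0.982 and with IR-A tumours at 0.987. Of the markers of Huh7 as a hepatocyte-derived line, 8 were measured and all were bright, with list means of 11.75 to 11.99 in control and 12.06 to 12.15 in IR-A tumours. Fibroblast markers (COL1A1, COL1A2 and LUM) were higher in 3 of 3, with list means of 4.60 to 4.90 in control and 5.47 to 5.70 in IR-A tumours. Leukocyte markers were higher in 2 of 3, with means of 6.10 to 6.39 against 6.83 to 7.16, while the defining marker PTPRC was dim in every tumour (2.84 to 2.99). List means overlapped between groups for endothelial (4.15 to 4.34 against 4.31 to 4.44) and erythroid markers (4.28 to 4.76 against 4.76 to 4.84). The probe sets are of human genes, and the part of host cells in the snoRNA differences was not tested. The labels tie no tumour to a mouse or culture, so the spread behind every p-value is that among these 6 arrays and could be technical. In bulk tumour RNA, fewer cells of a type and less RNA per cell cannot be told apart.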

How the data were processed

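Each array of the deposited table has a log2 signal for every probe set. The submitters' processing notes list RMA and Partek but no version or role. The array model and the probe set definition were not given in the sources used here. Per the labels' protocols, 500 ng of Trizol-extracted total RNA was labelled by a whole-transcript assay. GEO's annotation named 23934 of 24726 probe sets. All 222 members matched RefSeq (GRCh38.p14) by gene ID, which gave chromosome, length and hosts. A host is the gene whose span holds the snoRNA. The table has no strand, so where several genes held it a written host list decided. Of several probe sets of a host symbol, the brightest was used.

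limma 3.58.1 in R 4.3.3 (lmFit, eBayes, no filter) was fitted to all probe sets, with Benjamini-Hochberg adjustment, and tested on simulated data. SE is the moderated one. The members, lists and rules were chosen with earlier results of these data known. INSR, the processing snoRNAs, the 10 lowest and 10 highest members, the ends of hosts with at least 4 members, the 2 brightest members of each imprinted cluster, and hosts and particle proteins were named by rule. Other genes with values in the text, such as SNORD50B, SNORD60, SNORD90, RPPH1 and RMRP, were added after their values were seen. Tables and plots came from Python 3.11.15 with matplotlib 3.10.9. The values of 1 host gene and its snoRNAs are not reported here by name and are not plotted by host, but they are part of the counts.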

Additional observations from a re-analysis of the deposited data

How the results depend on the processing

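The alternatives changed the scaling (quantile normalization or centring on array medians), the filter (without the dimmest 25% or 50%), the variance model (trend, robust, unmoderated, weights or replicate block), or left out a tumour. The number of arrays limits the precision, and signal over background was not measured. The cause of a move was not tested unless a filter left fewer probe sets. Outside the imprinted clusters, the median difference ran from -1.06 to -0.73 and the members below 0 from 133 to 134 over left-out tumours. Members lower at an unadjusted p under 0.05 numbered 55 without moderation and 60 to 113 over left-out tumours. Those higher at that p numbered 0 without the dimmest 25% or 50%, and 0 to 2 over left-out tumours. Members lower without overlap numbered 63 after quantile normalization and 79 to 121 over left-out tumours, where the count can only stay or rise. The median of the imprinted members was 0.0056 after quantile normalization, -0.14 without the dimmest 50%, where 1 member was left, and -0.04 to -0.01 over left-out tumours. Probe sets with an adjusted p under 0.05 numbered 14 and 20 without the dimmest 25% and 50%, 11 with array weights, and 0 to 308 over left-out tumours.

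Same-numbered tumours did not deviate together (correlations of -0.29, -0.36 and 0.02 between deviations from the group means). With 3 tumours per group this cannot decide whether the number marks a pair, and the main fit used no pairing. With the replicate block, 0 members were higher and 87 lower at an unadjusted p under 0.05. Of 666 values of 46 named genes under alternatives, 10 turned sign, in 5 genes with differences near 0. Over left-out tumours, SNORD102 ran from -0.28 (without IR-A tumour 3) to 0.58, and was -0.10 without IR-A tumour 1. SNORD113-3 was 0.0064 after centring and 0.021 after quantile normalization, and ran from -0.12 to 0.075 over left-out tumours. SNORD113-9 ran from -0.17 (without control tumour 2) to 0.43, SNORD114-27 from -0.32 to 0.077 (without control tumour 3) and SNORD116-15 from -0.37 to 0.14 (without control tumour 3).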
